A study of Mus musculus with 10 samples.

Results

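The transcripts described here encode 10 adipokines and adipokine receptors. They are leptin (Lep) and its receptor (Lepr), adiponectin (Adipoq), resistin (Retn), chemerin (Rarres2) and its receptor (Cmklr1), and the products of Nampt, Apln, Metrnl and Rbp4. They were chosen by name, and every probe set annotated with exactly 1 of these symbols was taken. All 10 genes were found, through 20 of the 45101 probe sets on the array. The samples were epididymal white fat of male C57BL/6J mice, which were 8 weeks old when put on CRF-1 chow or on a diet with 60% fat, and which ate it for 8 weeks. Each diet group held 5 mice, with 1 single-colour Affymetrix array per mouse. The labels name no transgene, and chow is the comparison group at this 1 time point.

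Adipokines are proteins that fat tissue releases into the blood or to neighbouring cells. Leptin is made by adipocytes in proportion to fat stores and restrains feeding through its receptor in the brain. Adiponectin is an insulin-sensitizing hormone of adipocytes, whose blood level is usually lower in obesity. The fat pad also holds macrophages, vessels and stromal cells, and a transcript of the whole pad can come from any of them.

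By the brightest probe set of each gene, Lep, Metrnl, Rarres2 and Nampt rose in the high-fat group, Lepr fell, and Adipoq, Retn, Cmklr1, Apln and Rbp4 did not pass the threshold of an adjusted p of 0.05 (limma, adjusted over 45037 probe sets). Over the 20 member probe sets, 7 rose, 1 fell and 12 did not pass. Among all probe sets 17.9% passed, 9.89% as higher and 8% as lower. Of the 15 member probe sets brighter than the median probe set 6 rose and 1 fell, against 16.2% and 12.5% of all probe sets of that brightness. By 1 probe set per gene, 4 members rose and 1 fell, against 12.1% and 11.9% of all genes. In 6 member probe sets every high-fat array lay above every chow array and in 1 every one lay below, against 9.49% and 7.16%. The median log2 change, high-fat minus chow, was 0.31 for the 20 probe sets and 0.013 for all probe sets.

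**Figure D1:**
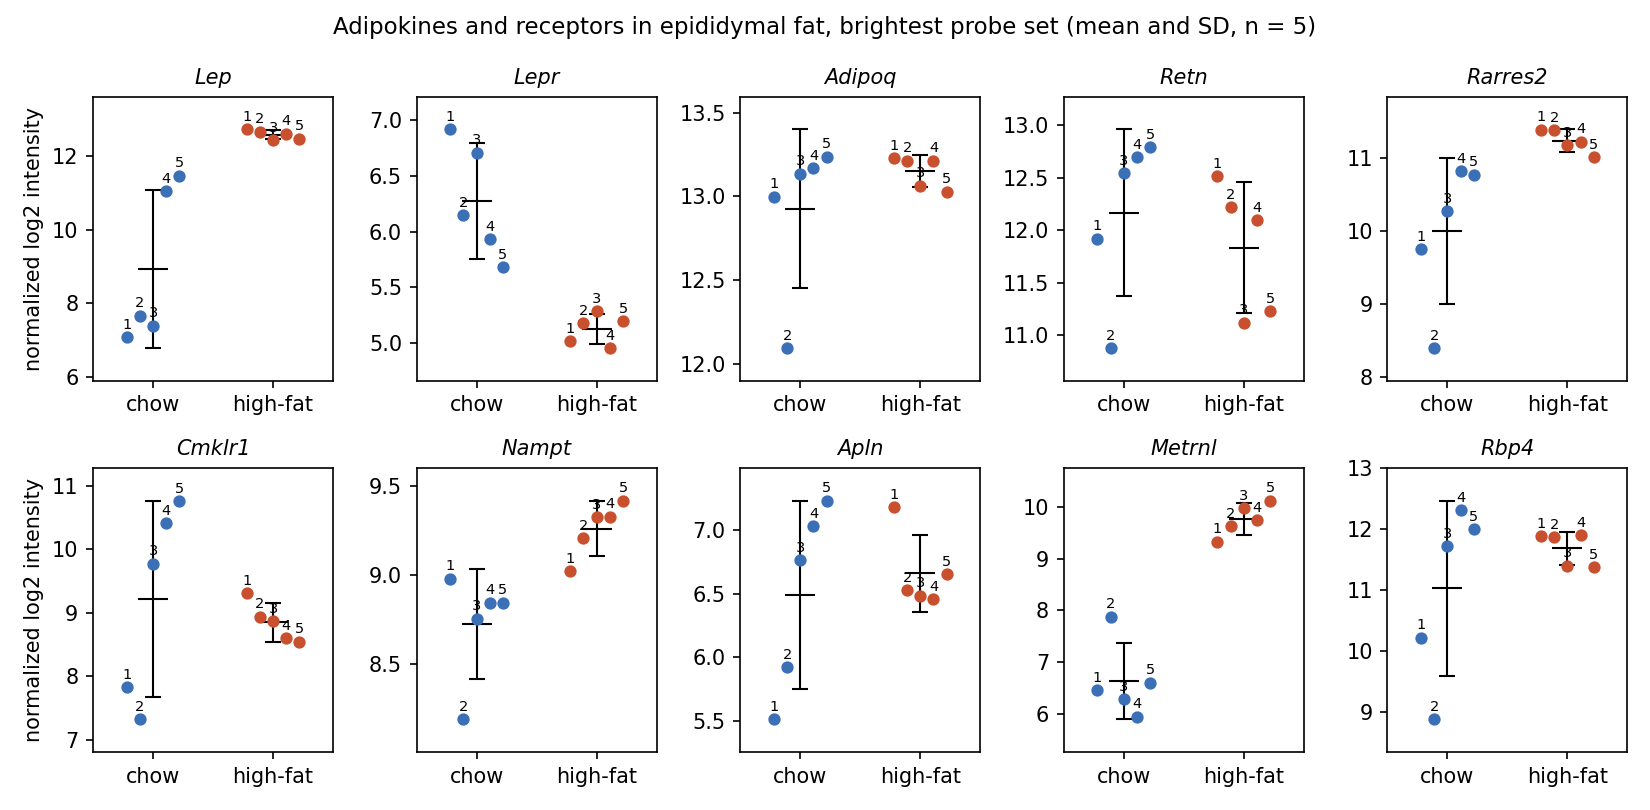
Normalized log2 intensity of the brightest probe set of each member on every array, with the mean and SD of 5 arrays per diet; each panel has its own scale, and heights cannot be compared between genes. The high-fat arrays of Lep, Metrnl, Rarres2 and Nampt all lie above the chow arrays, those of Lepr all lie below, and chow array 2 is the lowest of the 10 arrays for Adipoq, Retn, Rarres2, Cmklr1, Nampt and Rbp4.

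The chow arrays had a larger SD than the high-fat arrays for the brightest probe set of each member. The mean log2 level of 12 adipocyte markers, none of them a member, was 9.20 in chow array 2 and 10.49 in chow array 1, against 10.80 to 11.08 in chow arrays 3 to 5 and 10.72 to 11.15 in the high-fat group. Of these markers, which include Fabp4, Lpl, Cidec and Pparg, 1 of 12 rose. It was Gpd1, which rose by 2.355 (limma adjusted p = 0.000331) without overlap between diets. All 12 were brighter than the median probe set. All 12 macrophage markers rose, and their mean ran from 6.84 to 7.79 in chow arrays and from 10.29 to 10.96 in high-fat arrays. The means of 10 epithelial markers (6.68 to 10.27 against 4.07 to 4.67) and of 14 epididymis and testis markers (7.39 to 11.57 against 4.14 to 5.36) were higher in every chow array than in any high-fat array, and 10 of 10 and 6 of 14 of them fell. Of the other lists, 0 of 10 endothelial markers passed, 2 of 8 stromal progenitor markers rose, 1 of 8 mesothelial markers fell, and 6 of 7 smooth muscle markers fell. The actin control, which reads both ends of 1 transcript, had a 5'/3' ratio of 0.272 to 0.456 in chow and 0.557 to 0.643 in high-fat arrays. The same ratio of the Gapdh control was 0.564 to 0.9 in chow and 1.019 to 1.082 in high-fat arrays. The part of these differences in the results on the members and on the other genes named below was not tested. For the members, values without chow arrays 1 and 2 are given where they change a result. In whole tissue, fewer cells of a type and less RNA per cell cannot be told apart.

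**Figure D2:**
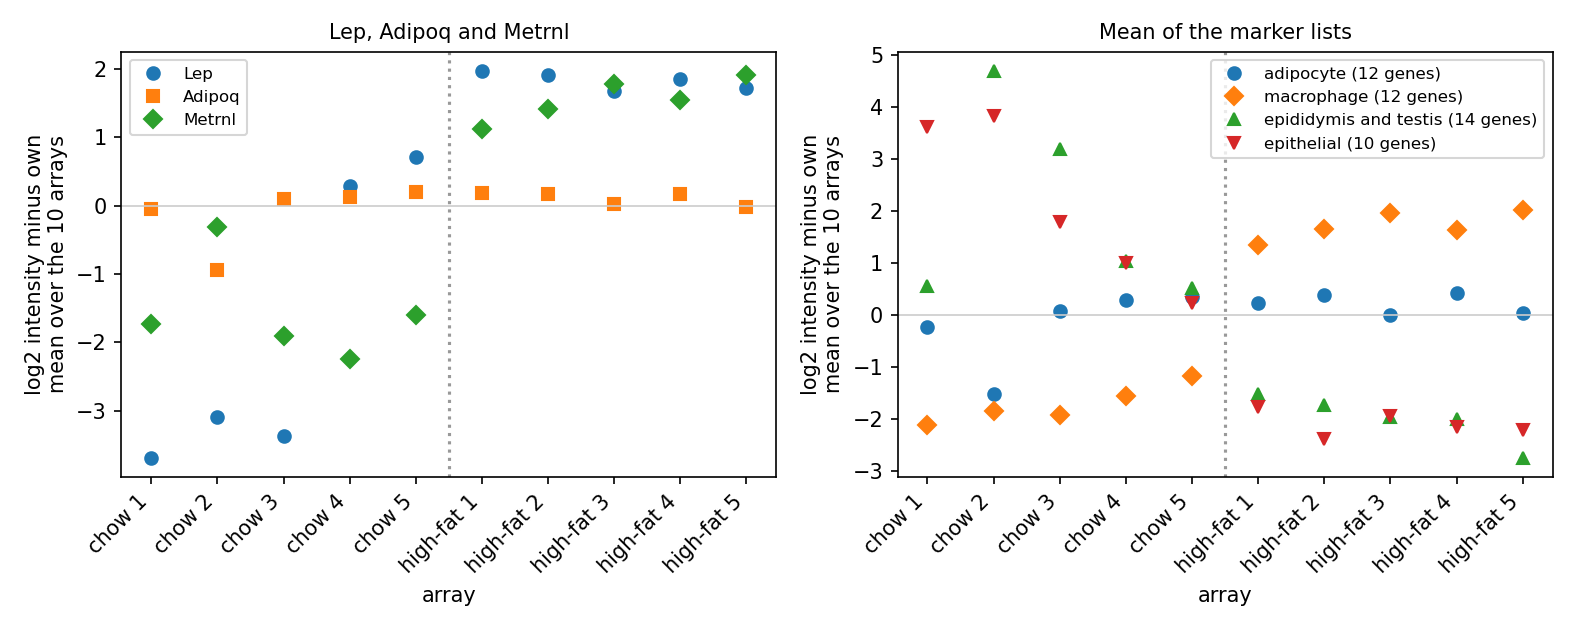
Left, log2 intensity of Lep, Adipoq and Metrnl on each array, and right, the mean log2 intensity of 4 marker lists, each minus its own mean over the 10 arrays. Lep was low in chow arrays 1 to 3 whereas Adipoq was low in chow array 2, and the macrophage mean was higher, and the epididymis and epithelial means lower, in every high-fat array.

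Lep and Metrnl had the largest changes of the members' brightest probe sets, while Adipoq did not pass. The 250 bases before the RefSeq start of these 3 genes (GRCm38.p6, plus strand, 5′ to 3′) are shown for this reason, at chr6:29059971-29060220 for Lep, chr11:121702177-121702426 for Metrnl and chr16:23146286-23146535 for Adipoq. Capitals mark matches, on either strand, to 4 motifs: TTGCNNAA (a C/EBP-type site, C/EBP proteins being transcription factors of adipocytes), GGGCGG (a GC box), CCAAT and TATAAA.
Lep: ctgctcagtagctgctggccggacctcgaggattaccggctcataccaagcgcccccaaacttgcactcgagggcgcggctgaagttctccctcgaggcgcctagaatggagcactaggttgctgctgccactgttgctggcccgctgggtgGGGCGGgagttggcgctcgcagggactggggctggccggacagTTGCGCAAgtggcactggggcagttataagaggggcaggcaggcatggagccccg
Metrnl: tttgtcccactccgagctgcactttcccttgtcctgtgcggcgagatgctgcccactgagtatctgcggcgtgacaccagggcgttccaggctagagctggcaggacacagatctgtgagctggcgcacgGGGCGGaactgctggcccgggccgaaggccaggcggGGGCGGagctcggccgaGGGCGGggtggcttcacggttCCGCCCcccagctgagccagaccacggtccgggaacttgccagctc
Adipoq: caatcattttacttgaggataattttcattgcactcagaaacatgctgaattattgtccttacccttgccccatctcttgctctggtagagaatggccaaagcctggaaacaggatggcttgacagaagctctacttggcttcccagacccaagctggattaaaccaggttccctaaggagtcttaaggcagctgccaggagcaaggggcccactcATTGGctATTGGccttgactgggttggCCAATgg
The Lep window held 1 match to TTGCNNAA, which begins at position -55 from the start, and 1 to GGGCGG. The Metrnl window held 4 matches to GGGCGG and the Adipoq window 3 to CCAAT, and none of these matches overlapped. Of 32851 RefSeq windows of the same length, 9.56% held TTGCNNAA, 32.74% GGGCGG, 33.85% CCAAT and 12.37% TATAAA, which none of the 3 windows held. A match describes the letters of a window and does not show that a factor binds there. RefSeq promoters were matched for 9 of the 10 members.

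Lep rose, with the largest change of the members over all arrays, and its chow level was far from uniform. Its log2 intensity was 7.07, 7.66, 7.39, 11.04 and 11.47 in chow arrays 1 to 5 and 12.73, 12.67, 12.44, 12.61 and 12.48 in high-fat arrays 1 to 5. As deposited, its intensity ran from 125 to 2290 in chow and from 5902 to 7113 in high-fat arrays. Every high-fat array lay above every chow array, and chow arrays 1 to 3 lay far below chow arrays 4 and 5. The change was 3.66 on the log2 scale (limma SE 0.81, adjusted p = 0.00916). The chow mean was 8.92 ± 2.14 and the high-fat mean 12.58 ± 0.12 (SD, 5 arrays each), a 12.6-fold difference of geometric means. The 2-sided exact permutation p was 0.00794, the smallest that 252 arrangements can give. The size depended on which chow arrays were kept: Lep rose by 2.62 without chow arrays 1 and 2 (limma adjusted p = 0.0215) and by 1.33 without chow arrays 1, 2 and 3 (adjusted p = 0.000180). The latter set leaves out the chow arrays with the lowest Lep and keeps only chow arrays 4 and 5, so its smaller p adds no support. In both sets Metrnl had the larger change, 3.47 and 3.48. Over all arrays it also led by the ratio of mean deposited intensities (9.31 against 6.60 for Lep). Chow array 3 held 7.39 for Lep beside an adipocyte marker mean of 10.80. Chow arrays 1 and 2 held 7.07 and 7.66 beside means of 10.49 and 9.20. The part of the tissue mix in the low chow values of Lep was not tested.

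Lepr, the cytokine-type receptor that carries the leptin signal in its long isoform, fell by its brightest probe set, which changed differently from 1 of its 3 other probe sets. Probe set 1456156_at read 6.92, 6.14, 6.71, 5.93 and 5.68 in chow arrays 1 to 5 and 5.02, 5.18, 5.29, 4.96 and 5.20 in high-fat arrays 1 to 5. No high-fat array reached the lowest chow array. Within chow it was highest in arrays 1 to 3, as were the epithelial marker mean (10.1, 10.3, 8.2, 7.4 and 6.7 in chow arrays 1 to 5) and the smooth muscle marker mean (11.8, 9.7, 9.4, 8.7 and 8.5). Both means were lower in every high-fat array than in any chow array. The part of such tissue in the fall of Lepr was not tested. The change of 1456156_at was -1.15 (limma SE 0.24, adjusted p = 0.00734), and it passed under each of 22 alternative settings, at -1.30 to -0.68. Probe set 1425875_a_at differed by 0.41 (adjusted p = 0.218), 1425644_at by -0.81 (adjusted p = 0.178) and the dim 1425873_a_at by 0.065 (adjusted p = 0.960). Within arrays, 1456156_at minus 1425875_a_at went from 1.89 ± 0.51 to 0.34 ± 0.23 (SD, n = 5 each; 2-sided exact permutation p = 0.00794, adjusted p = 0.0218 over the 11 pairs compared for 5 members). Against 1425644_at the difference changed by -0.34 (2-sided exact permutation adjusted p = 0.279) and against 1425873_a_at by -1.21 (adjusted p = 0.136), and neither passed. The annotation used here does not say which Lepr isoform each probe set reads.

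Adipoq did not pass, and it was nearly level in 9 of the 10 arrays. It read 13.00, 12.10, 13.13, 13.17 and 13.24 in chow arrays 1 to 5 and 13.23, 13.21, 13.06, 13.21 and 13.03 in high-fat arrays 1 to 5. Chow array 2 alone was low, and it also had the lowest adipocyte marker mean. The change was 0.22 (limma SE 0.21, adjusted p = 0.517) over all arrays and -0.032 (adjusted p = 0.854) without chow arrays 1 and 2. Its mean lay at the 99.9th percentile of all probe sets, and whether signal near the top of the scale was compressed was not tested, which also bears on the difference from Lep.

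Leptin and adiponectin transcripts changed by different amounts. Lep minus Adipoq within an array was -5.93, -4.44, -5.75, -2.13 and -1.77 in chow arrays 1 to 5 and -0.50, -0.55, -0.63, -0.60 and -0.55 in high-fat arrays 1 to 5. Chow arrays 1 to 3 had the lowest differences, and the groups did not overlap. The change of 3.44 had a 2-sided exact permutation p = 0.00794 (n = 5 each), and it was 2.65 without chow arrays 1 and 2 and 1.39 without chow arrays 1, 2 and 3. Such a difference shows unequal change and not the amounts of the transcripts, since probe sets differ in brightness.

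Retn, which in mice encodes an adipocyte hormone that opposes insulin, did not pass. It read 11.92, 10.88, 12.55, 12.70 and 12.79 in chow arrays 1 to 5 and 12.51, 12.22, 11.12, 12.09 and 11.23 in high-fat arrays 1 to 5. The groups overlapped, with high-fat arrays 3 and 5 near the lowest chow array. The change was -0.33 (limma SE 0.39, adjusted p = 0.621), it turned to 0.073 after median centring of the arrays, and it was -0.84 without chow arrays 1 and 2 (adjusted p = 0.0594).

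Rarres2 encodes chemerin, which is secreted as a precursor, cut by proteases, and attracts cells that carry its receptor. Both bright probe sets rose, and the dim one did not pass. Probe set 1437902_s_at read 9.75, 8.40, 10.27, 10.81 and 10.77 in chow arrays 1 to 5 and 11.38, 11.38, 11.18, 11.22 and 11.01 in high-fat arrays 1 to 5. Probe set 1428538_s_at read 9.39, 8.29, 10.08, 10.78 and 10.45 in chow arrays 1 to 5 and 11.46, 11.43, 11.09, 11.39 and 11.10 in high-fat arrays 1 to 5. For both, every high-fat array lay above every chow array. Probe set 1425091_at read 4.27, 3.76, 4.46, 5.34 and 5.02 in chow arrays 1 to 5 and 4.68, 4.49, 3.90, 4.04 and 3.44 in high-fat arrays 1 to 5. Here the groups overlapped, and high-fat array 5 was the lowest of the 10. From lowest to highest, the order of the chow arrays was the same for the 3 probe sets, with chow array 2 lowest and chow array 4 highest.

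The changes were 1.23 (limma SE 0.39, adjusted p = 0.0467) for 1437902_s_at, 1.50 (SE 0.39, adjusted p = 0.0199) for 1428538_s_at and -0.46 (SE 0.36, adjusted p = 0.438) for 1425091_at, whose mean lay at the 49.5th percentile of all probe sets. Against this dim probe set, the within-array difference rose by 1.69 for 1437902_s_at and by 1.96 for 1428538_s_at, with no overlap between diets (2-sided exact permutation p = 0.00794, adjusted p = 0.0218 for each). The bright probe sets also differed slightly from each other, their difference going from 0.20 ± 0.14 to -0.059 ± 0.092 (SD, n = 5 each; 2-sided exact permutation adjusted p = 0.0291), a call lost without high-fat array 1 or 4 (adjusted p = 0.0582). In the array maker's naming, _s_at marks probe sets whose probes may match more than 1 transcript. Which transcripts the dim probe set reads was not tested.

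The call for 1437902_s_at was close to the threshold. It was lost under 10 of 22 alternatives, among them without chow array 1 or 3 or without any single high-fat array (adjusted p = 0.0707 to 0.0985). In contrast, 1428538_s_at passed under each of its 21 alternatives (0.68 to 1.96). Without chow arrays 1 and 2 the rises were smaller, 0.62 (adjusted p = 0.00727) and 0.86 (adjusted p = 0.00211).

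**Figure D3:**
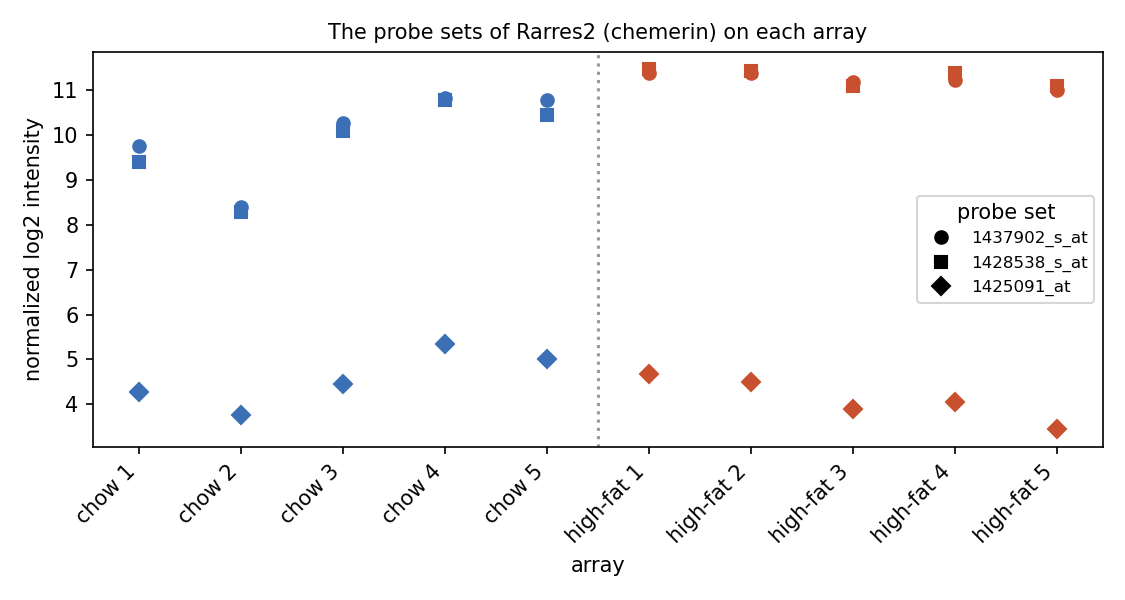
Normalized log2 intensity of the 3 probe sets of Rarres2 on each chow and high-fat array; vertical distances between probe sets have no meaning as amounts. Both bright probe sets are higher in every high-fat array than in any chow array, and the dim 1425091_at overlaps between diets.

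Cmklr1, the chemerin receptor found on macrophages, dendritic cells and adipocytes, did not pass over all arrays. Probe set 1456887_at read 7.83, 7.32, 9.77, 10.41 and 10.76 in chow arrays 1 to 5 and 9.31, 8.94, 8.87, 8.60 and 8.54 in high-fat arrays 1 to 5. The high-fat arrays lay above chow arrays 1 and 2 and below chow arrays 3 to 5. The change was -0.37 (limma SE 0.60, adjusted p = 0.733) and turned to 0.047 after median centring. Without chow arrays 1 and 2 it was -1.46 and passed (adjusted p = 0.000745), so those arrays decided this call. The dim probe set 1426072_at differed by 0.15 (adjusted p = 0.933), with 1 array at the floor.

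Metrnl, which encodes meteorin-like, a secreted protein of fat, muscle and activated macrophages, had the smallest adjusted p of the members. Probe set 1424356_a_at read 6.47, 7.88, 6.29, 5.95 and 6.61 in chow arrays 1 to 5 and 9.32, 9.62, 9.98, 9.74 and 10.12 in high-fat arrays 1 to 5. The lowest high-fat array lay above the highest chow array, which was chow array 2. The change was 3.12 (limma SE 0.31, adjusted p = 6.65e-05), an 8.66-fold difference of geometric means, and it passed under each of 22 alternatives, at 2.91 to 3.48. Probe set 1444097_at rose by 1.27 (SE 0.34, adjusted p = 0.0246) with overlapping groups, since high-fat array 4 (3.90) lay below chow arrays 4 and 5. On the log2(value + 16) scale it rose by 0.76, since it was dim. The limma call of 1444097_at was lost under 8 of 21 alternatives. Among them were those without chow array 3 or high-fat array 1, 2, 3 or 5 (adjusted p = 0.0571 to 0.0674), without chow arrays 1, 2 and 3 (adjusted p = 0.155), and with no normalization (adjusted p = 0.0620). The very dim 1441903_x_at differed by 1.57 (adjusted p = 0.121), with 1 array at the floor.

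Metrnl and the macrophage markers were both higher in every high-fat array, but within chow they did not peak together. Metrnl was highest in chow array 2 (7.88), where the macrophage marker mean was 7.12, and that mean was highest in chow array 5 (7.79). The Metrnl level minus the macrophage marker mean of the same array was -0.59 ± 0.86 in chow and -0.92 ± 0.068 in high-fat arrays (SD, n = 5 each). That of Lep was 1.69 ± 1.81 and 1.91 ± 0.39, so this measure does not set Metrnl apart from Lep. Every other member had a lower mean in the high-fat than in the chow group, for example Adipoq (2.48 against 5.69), Rarres2 (0.56 against 2.77) and Lepr (-5.54 against -0.96). The measure was chosen after the values were seen and is given with no test. How much of the Metrnl signal came from macrophages was not tested.

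Nampt, the rate-limiting enzyme of the NAD salvage pathway, which is also found outside cells as visfatin, rose less. Its brightest probe set 1417190_at read 8.98, 8.19, 8.76, 8.85 and 8.85 in chow arrays 1 to 5 and 9.02, 9.21, 9.32, 9.33 and 9.42 in high-fat arrays 1 to 5. The groups did not overlap, but chow array 1 came close to high-fat array 1. The change was 0.53 (limma SE 0.15, adjusted p = 0.0316), a 1.45-fold difference of geometric means. Probe set 1448607_at rose by 0.93 (SE 0.28, adjusted p = 0.0386) and by 0.50 on the log2(value + 16) scale, and 1455320_at differed by 0.11 (adjusted p = 0.704).

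Probe sets 1417190_at and 1455320_at of Nampt changed unequally, by 0.43 within arrays (2-sided exact permutation adjusted p = 0.0218, n = 5 each), and by 0.22 without chow arrays 1 and 2 (adjusted p = 0.0393). The call for 1417190_at was lost under 7 of 22 alternatives, among them without chow array 3 or high-fat array 2, 3, 4 or 5 (adjusted p = 0.0586 to 0.0819). That for 1448607_at was lost under 9 of 20, among them without chow array 3 or 5 or high-fat array 1, 2, 4 or 5 (adjusted p = 0.0656 to 0.0961). After median centring the change of 1417190_at was 0.96 (adjusted p = 0.000736), against 0.83 for the values as deposited, and 1455320_at passed as well (0.50, adjusted p = 0.0463), a scaling that moved the median change of all probe sets from 0.013 to 0.18. The RNA control ratios also differed between diets, and their part in the unequal change was not tested.

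Apln and Rbp4 did not pass, and both were lowest in chow arrays 1 and 2. Apln, the precursor of the peptide apelin that acts on vessels and heart, read 5.52, 5.92, 6.77, 7.03 and 7.23 in chow arrays 1 to 5 and 7.18, 6.53, 6.49, 6.46 and 6.66 in high-fat arrays 1 to 5. The change was 0.17 (limma SE 0.32, adjusted p = 0.771), and -0.35 (adjusted p = 0.201) without chow arrays 1 and 2. Rbp4, the retinol carrier of blood that fat as well as liver makes, read 10.22, 8.88, 11.72, 12.31 and 12.00 in chow arrays 1 to 5 and 11.89, 11.87, 11.40, 11.90 and 11.38 in high-fat arrays 1 to 5. The change was 0.66 (limma SE 0.56, adjusted p = 0.473), and -0.32 (adjusted p = 0.206) without chow arrays 1 and 2. For both genes the sign rested on these arrays. The endothelial marker mean was lowest there too, at 8.05 and 7.23 against 9.46 to 9.87 in chow arrays 3 to 5. So were the adipocyte mean (10.49 and 9.20 against 10.80 to 11.08) and the stromal progenitor mean (9.50 and 9.26 against 9.765 to 9.89). The epithelial and smooth muscle means were highest there.

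**Figure D4:**
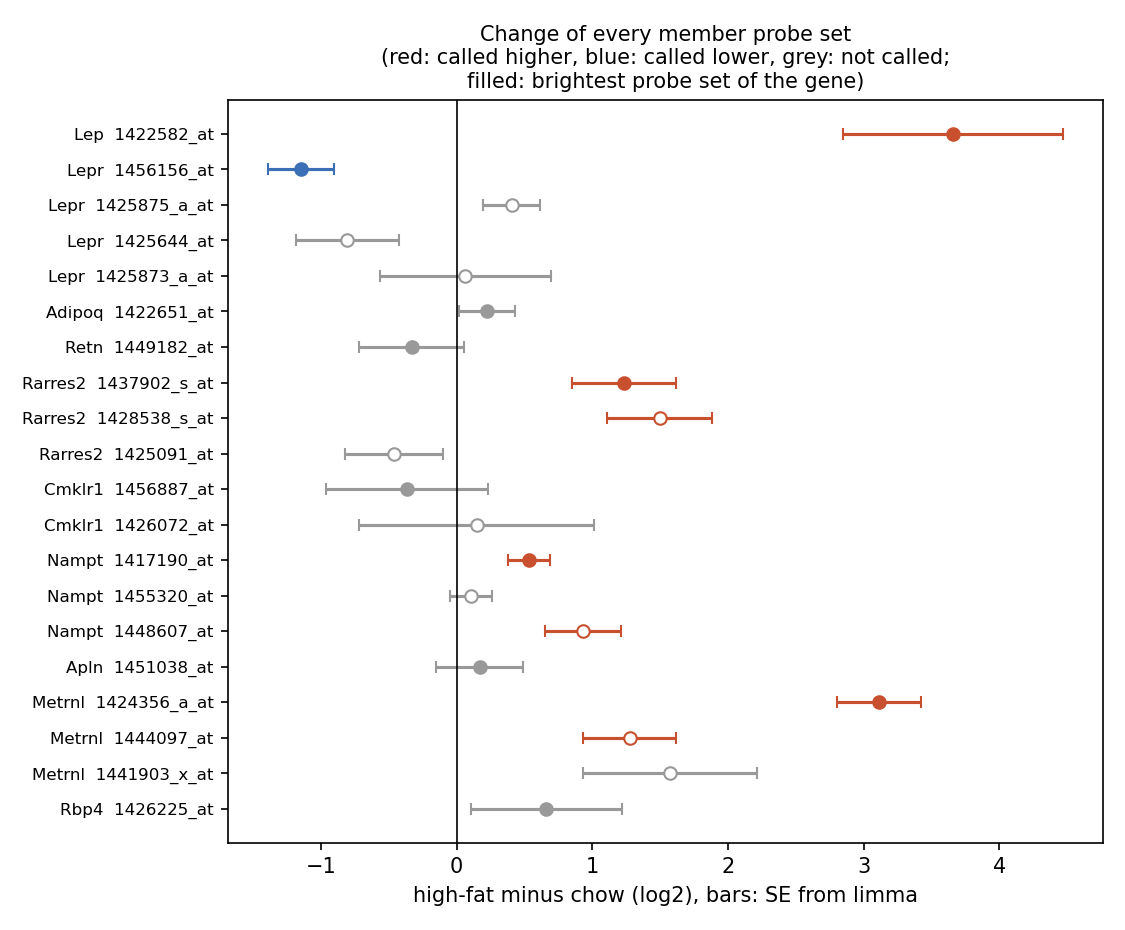
Change of all 20 member probe sets, high-fat minus chow on the log2 scale, with the limma SE; colours mark probe sets called higher, called lower and not called. The changes run from -1.15 for a Lepr probe set to 3.66 for Lep, and probe sets of Lepr and Rarres2 lie on both sides of 0.

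Each member was also set against the mean of the 12 adipocyte markers in the same array. That mean includes Gpd1, which itself rose by 2.355, and the part of Gpd1 in the relative changes was not tested. On this scale Lep rose by 3.24 and Rarres2 by 0.81, and Lepr fell by 1.57, each without overlap between diets (2-sided exact permutation p = 0.00794, adjusted p = 0.0265 over 10 members). Retn fell by 0.76 (2-sided exact permutation adjusted p = 0.0397), from 1.65 ± 0.13 to 0.90 ± 0.49 (SD, n = 5 each). Its chow values lay close together here, at 1.43 to 1.75. The Retn call was lost without any single array other than chow array 1 or high-fat array 1 (adjusted p = 0.0595 to 0.0794). It was also lost without chow arrays 1 and 2, where the change was -0.82 (2-sided exact permutation adjusted p = 0.0765). Metrnl differed by 2.69 (2-sided exact permutation adjusted p = 0.0635), with chow array 2 within the high-fat range. Adipoq (-0.20), Nampt (0.11), Apln (-0.25), Rbp4 (0.24) and Cmklr1 (-0.79) did not pass.

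Leaving out any single high-fat array ended the relative calls of Lep and Lepr (2-sided exact permutation adjusted p = 0.0595 to 0.0794), and high-fat array 2, 3, 4 or 5 that of Rarres2 (adjusted p = 0.0595 to 0.0794). The changes themselves were then 3.20 to 3.28 for Lep and -1.66 to -1.48 for Lepr. Both calls held without any single chow array (adjusted p = 0.0198 to 0.0265). Without chow arrays 1 and 2 the relative changes were 2.64 for Lep, -0.95 for Lepr, 0.64 for Rarres2, -1.44 for Cmklr1 and 3.50 for Metrnl, each with an adjusted p = 0.0357 (2-sided exact permutation).

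**Figure D5:**
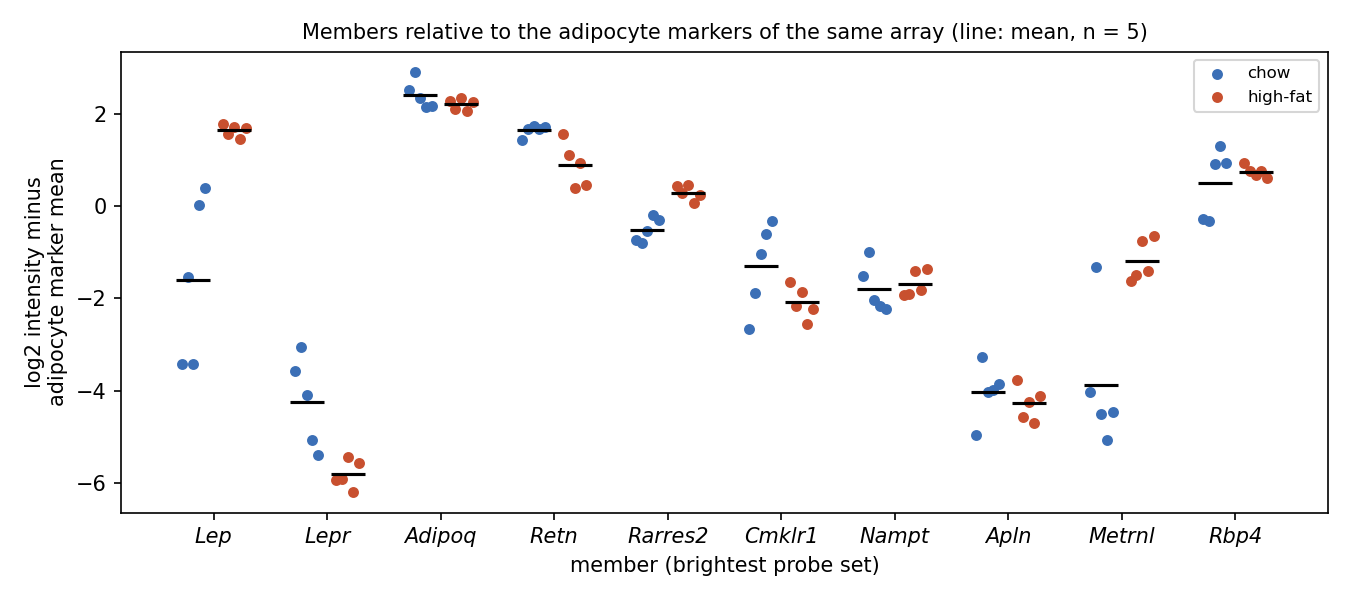
Log2 intensity of each member's brightest probe set minus the mean of 12 adipocyte markers on the same array, with 1 point per array and a line at the mean of 5; heights cannot be compared between genes. Lep and Rarres2 are higher and Lepr lower in every high-fat array, and the chow values of Retn lie close together at 1.43 to 1.75.

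For each member the genes with the nearest profile over the 10 arrays were found, by the root mean square distance in log2 units between profiles centred on their own mean. The nearest genes lie below the median distance by how they were picked, so a median given here shows only the scale. Nearest to Lep, which spanned 5.66 log2 units, were Sfrp5, a secreted Wnt antagonist (0.20), Crtac1 (0.38) and Mest (0.64), against a median distance of 2.31 over all genes compared. Adipoq spanned only 1.14 log2 units, most of it from chow array 2. Nearest to Adipoq were Lpl, the lipoprotein lipase of the adipocyte marker list (0.077), Ankrd50 (0.092) and Apc (0.095), against a median of 0.52. Retn lay nearest to Plin4, a lipid droplet coat protein (0.23), Akt2, a kinase of insulin signalling (0.23) and Fgf11 (0.24). Metrnl lay nearest to Ubash3b (0.25), Fcgr1, an Fc receptor of the macrophage marker list (0.28) and Bub1, a mitotic kinase (0.30). Rbp4 lay nearest to Fscn1 (0.15), Nr1h3, the oxysterol receptor LXR alpha (0.18) and Trarg1 (0.18). Rarres2 lay nearest to Mmd (0.11), 4930402H24Rik (0.13) and Mfng (0.14), and Nampt to Elovl1 (0.071), Dgkz (0.094) and Map3k14 (0.11). Lepr lay nearest to Tead2 (0.14), Nt5c3b (0.21) and Sh3bp4 (0.22), Cmklr1 to Lims2 (0.27), 4930486L24Rik (0.27) and Dmrt2 (0.28), and Apln to Hic1 (0.16), Med12l (0.19) and Pik3r6 (0.19).

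Other genes of the adipokine pathways moved in both directions. Of 85 listed genes 79 were named on the array, and 13 rose and 12 fell, against 12.1% and 11.9% of all genes. This balance depended on the scaling: 16 rose and 4 fell for the values as deposited, and 20 rose and 3 fell after median centring. All probe sets shifted the same way. Of all calls, 55.3% were higher with quantile normalization, 66.3% for the values as deposited and 76.3% after median centring.

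Among 26 other secreted adipokines 5 rose and 4 fell. Sfrp5 rose by 3.87 (limma SE 0.84, adjusted p = 0.00866), and its level, like that of Lep, was low in chow arrays 1 to 3 and higher in chow arrays 4 and 5 (5.23, 5.44, 5.41, 9.01 and 9.78). It rose by 2.77 without chow arrays 1 and 2. The inflammatory cytokine Tnf rose by 3.34 (adjusted p = 0.00228), but by 1.16 on the log2(value + 16) scale, since it was dim. The lipocalin Lcn2 fell by 2.76 (adjusted p = 0.00677) and the neuropeptide Npy by 2.75 (adjusted p = 0.0491). Lcn2 read 9.715, 13.163, 12.506, 11.061 and 10.025 in chow arrays 1 to 5. The epididymis and testis marker mean there was 7.43, 11.569, 10.069, 7.926 and 7.392. Both were highest in chow arrays 2 to 4, and lower in every high-fat array than in any chow array. The part of such tissue in the fall of Lcn2 was not tested. The Npy call was lost without chow array 1, 2 or 3 or any single high-fat array (adjusted p = 0.0795 to 0.103), and Npy differed by -1.26 without chow arrays 1 and 2 (adjusted p = 0.0919). The Npy call was also lost with no normalization (adjusted p = 0.0651) and after median centring (adjusted p = 0.0710).

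Among 16 other receptors and binding partners of the member ligands 5 rose and 2 fell. Ccrl2, a receptor that binds chemerin without signalling, rose by 1.08 (limma adjusted p = 0.00743), and Tlr4, the endotoxin receptor, rose by 1.68 (adjusted p = 0.0179) and by 0.92 without chow arrays 1 and 2. Stra6l, a receptor of the retinol carrier, rose by 3.28 (adjusted p = 0.0358), by 1.70 on the log2(value + 16) scale and by 1.57 without chow arrays 1 and 2. Its call was lost without chow array 2 or any single high-fat array (adjusted p = 0.0592 to 0.0798). Ttr, transthyretin, which binds Rbp4 in blood, fell by 3.01 (adjusted p = 0.0367), a call lost without chow array 3, 4 or 5 or high-fat array 1, 2, 3 or 4 (adjusted p = 0.0731 to 0.0929) and in both other scalings (adjusted p = 0.0516 in each). The adiponectin receptor Adipor1 fell by 0.42 (adjusted p = 0.0121) and Adipor2 differed by -0.32 (adjusted p = 0.575); both were named after their values were seen.

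Of 13 leptin signalling genes 3 fell and 0 rose. They were Stat3 (-0.80, adjusted p = 0.00596), the transcription factor that the receptor activates, its kinase Jak2 (-0.76, adjusted p = 0.00291) and the phosphatase Ptpn2 (-0.68, adjusted p = 0.00102), all by limma. None of these 3 passed after median centring (-0.35, -0.35 and -0.25) or for the values as deposited (-0.49, -0.48 and -0.38).

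Of 13 genes of adiponectin assembly and signalling 1 rose and 2 fell. Ppara, a nuclear receptor of fatty acid breakdown, fell by 1.19 (limma adjusted p = 0.0144) and the deacetylase Sirt1 by 0.59 (adjusted p = 0.0400), while the ceramidase Asah1 rose by 0.73 (adjusted p = 0.00462). The Sirt1 call was lost in both other scalings and without chow array 3, 4 or 5 or high-fat array 1, 2, 3 or 4 (adjusted p = 0.0710 to 0.0973). Of 11 NAD salvage genes 2 rose and 1 fell. Bst1, an enzyme that consumes NAD, rose by 2.45 (adjusted p = 0.00659) and by 1.39 on the log2(value + 16) scale, and Parp1, another such enzyme, rose by 0.60 (adjusted p = 0.0178), a call lost without high-fat array 2 (adjusted p = 0.0510). The nicotinamide riboside kinase Nmrk1 fell by 0.62 (adjusted p = 0.0127), which did not pass in either other scaling.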

How the data were processed

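RNA of each of 10 fat pads was measured on an array of its own. The deposited table holds 1 linear intensity per probe set and array; how the authors summarised and scaled the probes is not stated in the labels. Values below the 5th percentile (0.658) were set to it, and all were log2 transformed and quantile normalized, because array medians (17.9 to 27.4) were spread over 0.613 log2 units. Arrays were mapped to diets by their labels, and their number limits the precision.

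All 45037 probe sets other than 64 controls entered 1 limma fit (version 3.58.1, R 4.3.3; eBayes with a trend, Benjamini-Hochberg, threshold 0.05) of 5 high-fat against 5 chow arrays. The platform annotation gave 34945 probe sets 1 symbol and 932 several, and did not list 9160. Where 1 probe set stood for a gene, it was the one with the highest mean. Single values were tested by 2-sided exact permutation over 252 arrangements.

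Named were every member, the 3 nearest profiles of each, and from each pathway list up to 4 genes with the largest called change, to which the smallest p-values were added where fewer than 2 were called. Members, lists, markers and alternatives were chosen with earlier results of these data known. Alternatives covered scaling, floor, pseudocount, variance model, array weights, dim probe sets, the replicate block and arrays left out. In simulated data over 45037 probe sets, limma recovered 32% of 100 changes of 1 and 80% of 100 changes of 2 log2 units, with 2 false calls among 114. The simulated probe sets varied independently with the same SD in both groups, and the changes were placed in probe sets brighter than the median. The real chow and high-fat arrays differed in SD, so these rates do not carry over to the real comparison.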

Additional observations from a re-analysis of the deposited data

Results flagged for a closer look

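Within each diet group of 5, the gap of the highest or lowest array to its nearest neighbour was set against the range of the group for each of 20 member probe sets, which makes 40 groups. In 6 of them the gap exceeded a share of 0.71 of the range; chance gives about 1 group in 20. Chow array 2 stood low for Adipoq (12.1 against 13 to 13.24 in the other chow arrays) and for Nampt 1417190_at (8.193 against 8.755 to 8.98). Chow array 1 stood high for Nampt 1455320_at (8.683 against 7.973 to 8.111). Among high-fat arrays, array 2 was low for Lepr 1425644_at (3.159 against 4.229 to 4.604), array 1 was high for Apln (7.183 against 6.456 to 6.655), and array 4 was low for Metrnl 1444097_at (3.902 against 5.287 to 5.484).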

How the results depend on the processing

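The calls of Lep, Lepr 1456156_at and Metrnl 1424356_a_at and, where it was tested, Rarres2 1428538_s_at held in direction and threshold under each alternative run. Member probe sets called higher numbered 7 over all arrays, 4 with 1 probe set per gene, and 3 to 7 when 1 array was left out. Those called lower numbered 2 without chow arrays 1 and 2 and 2 without chow arrays 1, 2 and 3. Over all probe sets 8057 were called, 4717 with 1 probe set per gene (fewer tested) and 12723 without chow arrays 1 and 2. Of all calls, 55.3% were higher, against 66.3% for the values as deposited and 76.3% after median centring. Pathway genes called higher numbered 20 after median centring, and those called lower 4 as deposited, 3 centred, 21 with array weights, 23 without chow arrays 1 and 2 and 21 without chow arrays 1, 2 and 3. With the replicate block 3 member probe sets were called higher, and 6085 of all probe sets were called. The labels state no pairing, and same-numbered arrays did not deviate together (correlations -0.062 to 0.013). The chow deviations also carry the differences in marker levels, so these correlations cannot settle whether the numbers pair the mice. These values turned sign: Lepr 1425873_a_at, -0.12 as deposited and -0.30 to 0.54 without 1 array; Adipoq, -0.032 without chow arrays 1 and 2 and -0.055 without chow arrays 1, 2 and 3; and Retn, 0.073 centred. Cmklr1 1456887_at was 0.047 centred and -0.84 to 0.019 without 1 array. Cmklr1 1426072_at was -0.052 as deposited, -0.064 on the log2(value + 16) scale, -0.21 with a floor at the 20th percentile, -0.63 with array weights, -1.08 and -1.40 without chow arrays 1 and 2 and 1, 2 and 3, and -0.59 to 0.58 without 1 array. With array weights, without chow arrays 1 and 2, and without chow arrays 1, 2 and 3, Apln was -0.15, -0.35 and -0.47 (-0.075 to 0.35 without 1 array) and Rbp4 -0.013, -0.32 and -0.47. Nampt 1417190_at minus 1448607_at was 0.036 as deposited, 0.036 centred and 0.017 on the log2(value + 16) scale. Against the adipocyte markers, Adipoq was 0.053 without chow arrays 1, 2 and 3, and Rbp4 -0.30 and -0.36 without chow arrays 1 and 2 and 1, 2 and 3. Rarres2 1437902_s_at minus 1428538_s_at no longer passed without chow arrays 1 and 2 (-0.24) or 1, 2 and 3 (-0.24), and was -0.30 to -0.22 without 1 array, where it did not pass without high-fat array 1 or 4 (adjusted p = 0.0582 each). Against 1425091_at, the differences without chow arrays 1, 2 and 3 were 1.51 and 1.75 and did not pass, with too few arrangements left to pass. With eBayes without a trend, the limma calls of Stra6l, Ttr, Sirt1, Npy and Parp1 were also lost (adjusted p = 0.05103 to 0.08765). Other than as stated, the cause was not tested. Dim probe sets, such as those at the floor, carry the least information on size.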
